A study of Macaca mulatta with 20 samples.

Results

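HP, the gene for haptoglobin, and CEBPA, the gene for the transcription factor C/EBP alpha, were followed in the rhesus macaque corpus luteum through a course of human chorionic gonadotropin (hCG). They were taken up because both had higher signals under hCG in these arrays, so their differences from the untreated arrays are given as a description and without a test. Of the 14132 genes that are the single symbol of a probe set in the platform annotation these are 2, and all their probe sets were read. These were 4 of the 52865 probe sets of the array, 1 for HP (MmuSTS.598.1.S1_at) and 3 for CEBPA (MmunewRS.760.1.S1_at, MmuSTS.3401.1.S1_s_at and MmuSTS.3401.1.S1_at). Both MmuSTS.3401 probe sets were designed under one sequence name and may read the same stretch of the transcript. No probe set carried HPR, a near-identical copy of HP, as its only symbol, so whether the HP probe set also reads HPR was not tested.

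The corpus luteum is the progesterone-secreting gland that forms from the ovulated follicle. The early placenta secretes chorionic gonadotropin, which binds the LH receptor of luteal cells and prolongs the life of the gland in early pregnancy. Haptoglobin is a plasma glycoprotein that binds free haemoglobin so that macrophages can clear the complex through the receptor CD163. It is made mainly by the liver, where cytokines of the IL6 family, glucocorticoids and C/EBP factors raise its transcription, and it is a classical acute phase protein. C/EBP alpha is a leucine zipper transcription factor that drives differentiation of adipocytes, hepatocytes and myeloid cells, and members of its family take part in the response of the ovary to LH.

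The 5 groups held 4 arrays each, all from corpora lutea of female rhesus macaques. The baseline group was untreated and collected on luteal day 10. The other 4 groups received recombinant hCG into muscle by 2 injections per day from luteal day 9. The whole regimen had 9 rising doses from 15 to 2880 IU, and groups collected earlier received only its earlier part. These 4 groups were collected on luteal day 10, 12, 15 or 18, which is 1, 3, 6 or 9 days into treatment. After day 10 the length of treatment, the dose and the luteal day rise together, and untreated glands of days 12, 15 or 18 were not analysed here, so these cannot be told apart. Separate animals are not stated for the glands of a group, and p-values therefore cover the spread between these samples alone, which may be technical.

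Every array had a trimmed mean signal of 200.01 or 200.02, and median signals of 31.6 to 46.4 intensity units. Of the 6 luteal markers measured, STAR, which carries cholesterol into mitochondria, had signals of 13123 to 17492 in the untreated arrays and 15298 to 18683 on hCG day 18. HSD3B2, which makes progesterone, had 6740 to 9501 untreated and 1742 to 2824 on hCG day 18, and NR5A1, a steroidogenic transcription factor, was dim throughout (mean 83.8). On principal component 3, 3 arrays lay apart from the rest, at -54.8 (untreated replicate 2), -54.8 (replicate 1 of hCG day 12) and -50.2 (replicate 2 of hCG day 15). The actin 3' probe set exceeded the 5' one by 0.52 to 1.23 log2 units over the arrays, a measure of RNA integrity. The whole glands were measured, so fewer or more cells of a type and less or more RNA per cell cannot be told apart.

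HP was dim in the untreated glands and bright in all 4 glands of hCG day 18. In untreated replicates 1 to 4 the HP signal was 83.3, 36.8, 54.8 and 102 intensity units. After 1 day of hCG it was 116, 52.9, 144 and 584, and after 3 days 151, 53.5, 845 and 413. In both groups 1 array, replicate 2, lay within the untreated range, so the groups overlapped. After 6 days HP was at 1407, 547, 171 and 1245, with all 4 arrays above the highest untreated one. After 9 days it was at 5934, 6695, 5409 and 5410, and the lowest of these was 3.84 times the highest signal of day 15.

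The HP signals spread widely on days 10 to 15 and closely on day 18. The highest array of a group had 2.77 times the signal of the lowest in the untreated group, 11.0 times on hCG day 10, 15.8 times on day 12, 8.23 times on day 15 and 1.24 times on day 18. The standard deviation of the log2 values was 0.52, 1.31, 1.58, 1.35 and 0.15 in the same order. Mean signals were 69.2 ± 29.0 (SD, n = 4) in the untreated group, then 224 ± 243, 366 ± 354, 843 ± 583 and 5862 ± 608. The order of the means followed the collection day, and of the neighbours in this order only hCG days 15 and 18 did not overlap in their arrays.

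**Figure D1:**
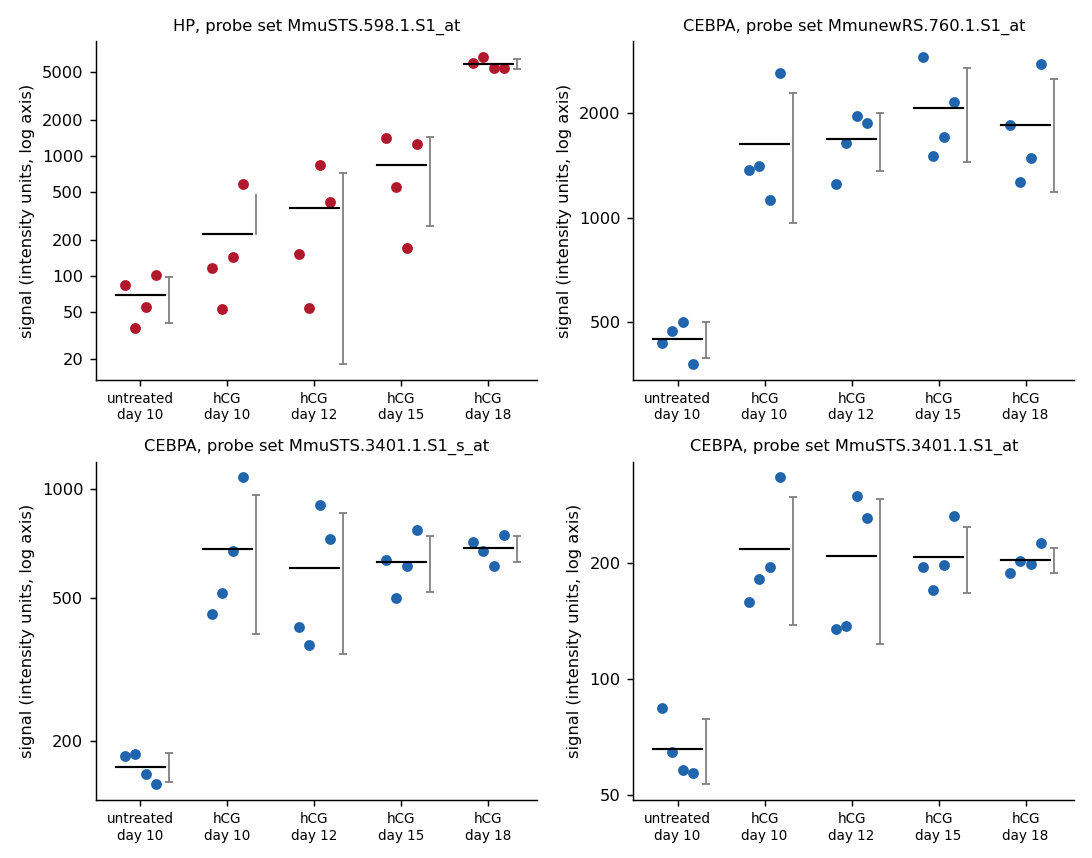
Signal of each of the 20 arrays (points, replicates 1 to 4 from left to right, intensity units, log axis) for the HP probe set and the 3 CEBPA probe sets in the 5 groups, with the group mean as a black line and the SD as a grey bar drawn upward only where the mean minus the SD is below 0. HP lies between 36.8 and 102 in the untreated arrays and between 5409 and 6695 on hCG day 18, and each CEBPA probe set is higher in every hCG array than in every untreated one.

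On the scale of log2 (signal + 16), HP differed from the untreated group by 1.08 ± 0.72 (SE), 1.65, 3.02 and 6.17 on hCG days 10, 12, 15 and 18. The last of these is 72.0-fold on that scale, with a 95% interval of the log2 change of 4.67 to 7.67, and the day 15 value is 8.11-fold, with an interval of 1.52 to 4.52. The interval of day 10 ran from -0.42 to 2.58 and that of day 12 from 0.15 to 3.16. Between collection days HP differed by 0.58 from day 10 to 12, by 1.36 from day 12 to 15 and by 3.15 (interval 1.65 to 4.65) from day 15 to 18. Ordered by log2 change among the 52707 probe sets tested, HP stood at ranks 291, 33, 2 and 1 in the same order. The step from day 15 to 18 was also the largest increase of any probe set in that step.

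Single arrays moved the early HP values. Without hCG day 10 replicate 4, which had the signal of 584, the day 10 log2 change was 0.48. The day 12 value was 1.07 without hCG day 12 replicate 3 and 2.28 without replicate 2. The day 18 value stayed between 5.96 and 6.35 over the 20 fits that left out 1 array each, and was 5.96 without the 3 arrays apart on component 3. Of those 20 fits, only the ones without an untreated or an hCG day 18 array could move the day 18 value.

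CEBPA was higher in each of the 16 hCG arrays than in each of the 4 untreated ones, in all 3 of its probe sets. On the brightest, MmunewRS.760.1.S1_at, untreated replicates 1 to 4 had signals of 435, 472, 502 and 379. After 1 day of hCG they were 1376, 1410, 1129 and 2605, and after 3 days 1252, 1644, 1963 and 1874. After 6 days the signals were 2910, 1507, 1708 and 2157, and after 9 days 1853, 1269, 1489 and 2770. The lowest hCG array of all, at 1129, was thus 2.25 times the highest untreated one, and the hCG groups overlapped one another throughout. All 16 hCG arrays lay above all 4 untreated ones in 127 probe sets of the array, 0.241% of those tested.

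CEBPA was at its higher level after 1 day and differed little between later days. Its means were 447 ± 53.0 (SD, n = 4) untreated, then 1630 ± 662, 1683 ± 318, 2070 ± 622 and 1845 ± 662. The log2 changes against the untreated group were 1.76 ± 0.26 (SE), 1.86, 2.13 and 1.95, or 3.39-, 3.64-, 4.39- and 3.87-fold. The steps between collection days were 0.10 (95% interval -0.45 to 0.65), 0.27 (-0.28 to 0.82) and -0.18 (-0.73 to 0.37), so changes of up to 0.82 log2 units in a step lay within the error. In the step from day 15 to 18, the largest of HP, the other CEBPA probe sets had 0.13 (-0.41 to 0.67) on MmuSTS.3401.1.S1_s_at and -0.01 (-0.50 to 0.49) on MmuSTS.3401.1.S1_at.

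The other CEBPA probe sets gave values of the same sign and similar or smaller size. On MmuSTS.3401.1.S1_s_at the mean signal was 169.9 ± 15.4 untreated and 680 ± 283, 603 ± 254, 629 ± 111 and 685 ± 56.7 under hCG, with log2 changes of 1.83, 1.64, 1.78 and 1.92 (SE 0.26). On MmuSTS.3401.1.S1_at it was 65.8 ± 12.6 and then 217 ± 79.3, 208 ± 84.7, 207 ± 40.2 and 203 ± 15.4, with log2 changes of 1.47, 1.38, 1.44 and 1.43 (SE 0.24). Replicate 4 was the highest array of hCG day 10 in all 3, at 2605, 1080 and 334. The probe sets parted on day 18, where the spread was from 1269 to 2770 on MmunewRS.760.1.S1_at but from 613 to 744 and from 188 to 225 on the other two. Across the 20 arrays the log2 signals of the 3 probe sets correlated at r = 0.906 to 0.985, and their deviations from the group means at 0.578 to 0.952, with the highest values between both MmuSTS.3401 probe sets.

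**Figure D2:**
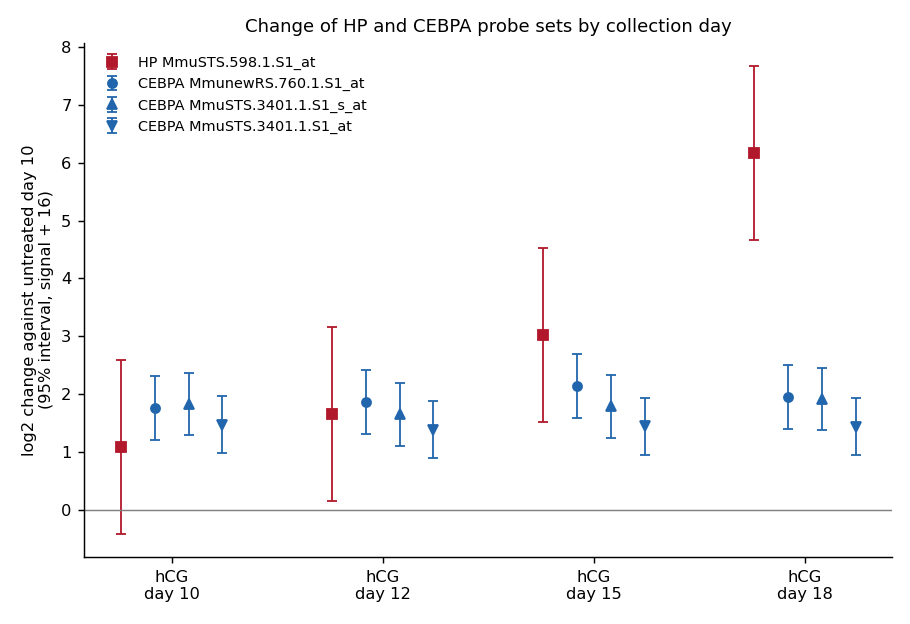
Log2 change (signal + 16) of HP and the 3 CEBPA probe sets against untreated day 10, with 95% intervals, on hCG days 10, 12, 15 and 18. HP goes from 1.08 to 6.17, while the CEBPA probe sets stay between 1.38 and 2.13.

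The threshold of the fit was an adjusted p under 0.05 over all 52707 probe sets with limma. It was passed, as higher, by 0.651%, 0.157%, 0.619% and 1.87% of probe sets on hCG days 10, 12, 15 and 18, and as lower by 0.304%, 0.131%, 0.674% and 2.02%. In either direction these shares were 0.954%, 0.288%, 1.29% and 3.9%. Of the probe sets that passed, 68.2%, 54.6%, 47.9% and 48.1% were higher, and with the arrays centred on their medians, which adds 0.12, 0.14, 0.11 and 0.05 to every log2 change, 86.1%, 73.9%, 64.7% and 55%. All 3 CEBPA probe sets were past it, as higher, in each of these comparisons, and HP in those of days 15 and 18. Arrays that were all above the untreated ones were found in 3.42%, 2.14%, 2.64% and 4.79% of probe sets. The CEBPA probe sets were among them each time and HP on days 15 and 18. Because the genes were chosen on these contrasts, the counts only describe them.

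Between collection days 0.518% of probe sets passed from day 10 to 12, and limma called 0 from day 12 to 15 and 0 from day 15 to 18, where 5.13% and 7% had an unadjusted p under 0.05. Neither HP nor CEBPA passed in any of these steps, HP in its largest step included. Its arrays did not overlap in the step from day 15 to 18, like those of 2.03% of probe sets in the same direction. They overlapped in the steps before it, where 1.91% and 1.08% of probe sets did not.

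Whether arrays with more HP than their group mean also had more CEBPA was not part of the choice and could be tested. Deviations from the group means of log2 (signal + 16) were compared over the 20 arrays, with permutation of arrays within groups, two-sided, and 15 relations were computed in this family. HP and CEBPA on MmunewRS.760.1.S1_at correlated at r = 0.494 (permutation p = 0.054, adjusted p = 0.2) and rho = 0.46 (permutation p = 0.064). They deviated with the same sign in 14 arrays, 6 above and 8 below their group means, and with opposite signs in 6. With MmuSTS.3401.1.S1_s_at r was 0.767 (permutation p = 0.0096, adjusted p = 0.11; rho = 0.705, permutation p = 0.013), and with MmuSTS.3401.1.S1_at 0.742 (permutation p = 0.015, adjusted p = 0.11; rho = 0.692, permutation p = 0.017). None passed after adjustment.

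The r was lower without 2 arrays. Without the arrays farthest from the median in HP, replicate 4 of hCG day 10 and replicate 3 of hCG day 12, r was 0.298, 0.604 and 0.573 for the 3 CEBPA probe sets in the order above. The actin 3' to 5' difference was compared with both genes in the same way, and no relation passed after adjustment. Its r was 0.561 with HP (permutation p = 0.066, adjusted p = 0.2; rho = 0.435, permutation p = 0.13) and 0.503 with CEBPA on MmunewRS.760.1.S1_at (permutation p = 0.061, adjusted p = 0.2; rho = 0.442, permutation p = 0.093). With MmuSTS.3401.1.S1_s_at its r was 0.458 (permutation p = 0.12, adjusted p = 0.26; rho = 0.365, permutation p = 0.18) and with MmuSTS.3401.1.S1_at 0.395 (permutation p = 0.17, adjusted p = 0.26; rho = 0.311, permutation p = 0.26). Without the same 2 arrays these were 0.305 for HP and 0.31, 0.0653 and -0.00747 for the CEBPA probe sets. With the actin difference held constant, the r of HP with CEBPA was 0.295 on MmunewRS.760.1.S1_at, 0.692 on MmuSTS.3401.1.S1_s_at and 0.685 on MmuSTS.3401.1.S1_at. The array's median signal had an r of -0.384 with HP and -0.0466, -0.512 and -0.513 with the CEBPA probe sets, and none of these passed after adjustment. The GAPDH 3' to 5' difference had an r of -0.372 with HP and 0.285, -0.234 and -0.293 with CEBPA, likewise not past the threshold. The part of these measures in the relation was not tested.

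**Figure D3:**
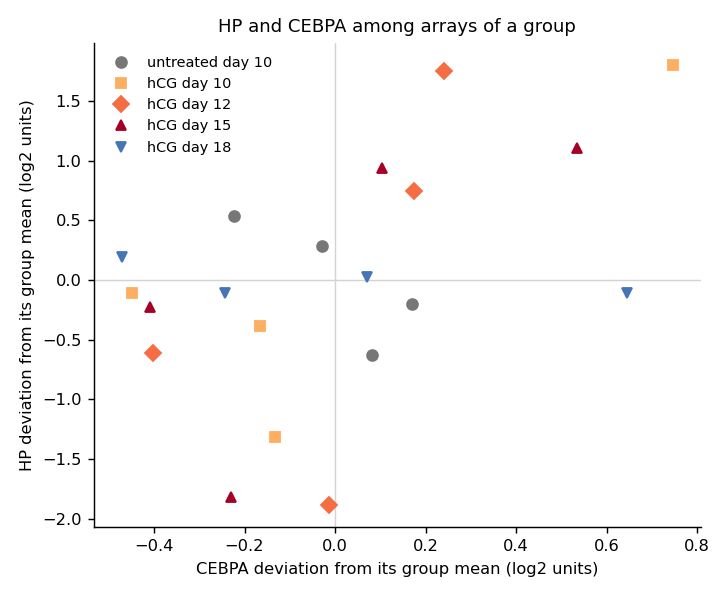
Deviation of HP (vertical) against deviation of CEBPA (horizontal) from the group mean, in log2 units, 1 point per array and coloured by group. CEBPA is read by MmunewRS.760.1.S1_at alone. The r over 20 arrays is 0.494, and the points farthest up are replicate 4 of hCG day 10 and replicate 3 of hCG day 12.

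The genes that handle haemoglobin, haem and iron around haptoglobin came from a list of 18, of which 12 were measured by a probe set with 1 symbol; CD163, the receptor of the haptoglobin complex, HMOX1 and the ferritin heavy chain gene FTH1 were not among them. On hCG days 10 and 12 none of the 12 passed (limma), on day 15 3 rose, and on day 18 4 rose and 1 fell. The list's median log2 change was -0.03, 0.18, 0.15 and 0.62 on the 4 days, beside -0.05, -0.06, -0.05 and -0.03 over all probe sets. In at least 1 of the 4 comparisons 5 of the 12 passed, beside 4.76% of all probe sets. BLVRB, a biliverdin reductase that also acts on flavin, rose from 364 ± 19.3 (SD, n = 4) to 726 ± 159 on day 15 and 1021 ± 153 on day 18 (log2 change 0.94 ± 0.23, adjusted p = 0.046, and 1.44 ± 0.23, adjusted p = 0.00086). Its hCG arrays of day 18, 823 to 1195, lay above the untreated range of 336 to 379. FTL, the light chain of the iron store ferritin, rose from 793 ± 82.5 to 1394 ± 387 and 1692 ± 237 (0.76 ± 0.17, adjusted p = 0.027, and 1.07 ± 0.17, adjusted p = 0.00085).

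The other genes of this list that passed carry copper, iron or haem. CP, the copper-carrying ferroxidase ceruloplasmin and itself an acute phase protein, rose on hCG day 18 from 20.1 ± 11.9 to 166 ± 62.9 (2.31 ± 0.54, adjusted p = 0.018), and 3 of its 4 probe sets passed there. On hCG days 10, 12 and 15 CP had log2 changes of -0.08, 1.40 and 1.84, which did not pass. FLVCR2, a membrane transporter, passed on days 15 and 18 (1.25 ± 0.27, adjusted p = 0.026, and 0.99 ± 0.27, adjusted p = 0.049). Its changes on days 10 and 12 were of similar size, at 1.12 and 1.11, and did not pass. TFRC, the receptor that takes up transferrin iron, fell on day 18 from 3039 ± 311 to 1778 ± 151 (-0.77 ± 0.21, adjusted p = 0.047), while its other probe set had -0.40 and did not pass. SLC40A1, the iron exporter ferroportin, was at 3250 ± 448 untreated and 5057 ± 760 on day 18 (0.63 ± 0.18, adjusted p = 0.053). HPX, the haem carrier hemopexin, was dim, with a mean of 31.2 untreated and 22.0 on day 18 (-0.36, adjusted p = 0.52). The day 18 calls of BLVRB and FTL held under all 28 other settings tried, whereas that of CP ended in 3, FLVCR2 in 17 and TFRC in 18. The day 15 calls ended in 19 settings for BLVRB, 9 for FTL and 7 for FLVCR2. The count of 5 for this list was 3 without untreated replicate 3 or without hCG day 18 replicate 1, and 2 without untreated replicate 4.

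Of 21 other acute phase protein genes listed, 18 were measured. CP, which rose on hCG day 18, was counted on the haem list above and is not among them. None passed on hCG days 10, 12 and 15 and 1 rose on day 18, and the list's median log2 change was 0.01, -0.05, -0.05 and -0.02, beside -0.05, -0.06, -0.05 and -0.03 over all probe sets. The 1 of 18 stands beside 1.87% of all probe sets higher on day 18 and 4.76% passed in at least 1 comparison. The 1 gene was ITIH4, an inter-alpha-trypsin inhibitor heavy chain, from 58.4 ± 6.47 to 96.9 ± 14.4 (0.60 ± 0.15, adjusted p = 0.029). Its other probe sets had 0.48 and -0.43 and did not pass, and the call ended in 8 of 28 settings, among them leaving out untreated replicate 2 or 3 or hCG day 18 replicate 2, 3 or 4. The liver's strongest acute phase genes were dim on day 18, with means of 30.5 for SAA1, 18.9 for CRP and 12.5 for ORM1. LCN2, lipocalin 2, was at 2922 ± 645 untreated and 3290 ± 1126 on day 18 on its brightest probe set (0.15 ± 0.40, adjusted p = 0.93). The other LCN2 probe sets had larger day 18 changes, of 0.85, 0.42 and 1.38, and did not pass. SERPINA1, alpha 1 antitrypsin, was at 942 ± 91.4 untreated and 927 ± 117 on day 18 (-0.03 ± 0.15, adjusted p = 0.97).

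The signals known to act on the HP gene in the liver were sought in a list of ligands, receptors and responses of IL6, IL1 and glucocorticoids, with 20 of 23 genes measured. On hCG day 10 2 of them rose, on day 12 none, on day 15 1 and on day 18 1, and none fell. In at least 1 comparison 2 of the 20 passed, beside 4.76% of all probe sets. The median log2 changes were -0.12, -0.16, -0.17 and -0.08. TSC22D3, a glucocorticoid-induced leucine zipper gene, had 2050 ± 210 untreated and 3478 ± 563, 3022 ± 761, 3347 ± 443 and 3616 ± 146 under hCG. It rose on days 10, 15 and 18 (0.75, 0.70 and 0.82, SE 0.16, adjusted p = 0.032, 0.038 and 0.0062). The day 18 call held in 28 of 28 settings, while those of days 10 and 15 ended in 10 and 13. Other genes of the list went another way without passing. FKBP5 had 0.88, -0.67, -0.86 and -0.25 on hCG days 10, 12, 15 and 18, and IL6ST -0.81, -0.83, -0.60 and -0.52. OSMR, the receptor of oncostatin M, rose on day 10 alone, from 2126 ± 256 to 3707 ± 936 (0.77 ± 0.18, adjusted p = 0.04), which ended in 14 of 28 settings, and was at 2124, 2136 and 2616 on the later days. The count of 2 genes for this list was 1 without any one of untreated replicates 2, 3 and 4, hCG day 10 replicates 1, 3 and 4 and hCG day 18 replicates 1 and 4. IL6 itself was dim, at 34.0 ± 10.1 untreated and 30.5 ± 13.1 on day 18 (-0.13 ± 0.19, adjusted p = 0.84). SOCS3, a feedback inhibitor induced by IL6, was at 12.7 ± 6.85 and 7.04 ± 3.96 (-0.30 ± 0.21, adjusted p = 0.58), and NR3C1, the glucocorticoid receptor, at 551 ± 38.2 and 698 ± 59.4 (0.33 ± 0.12, adjusted p = 0.14).

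Of 12 other genes of the C/EBP family and its regulators 10 were measured. None passed on hCG days 10, 12 and 15 and 1 rose on day 18, beside 1.87% of all probe sets higher on that day and 4.76% passed in at least 1 comparison. The median log2 changes were 0.28, 0.21, 0.16 and -0.01, beside -0.05, -0.06, -0.05 and -0.03 over all probe sets. CEBPD, the C/EBP delta gene, was that 1, at 537 ± 108 untreated and 899 ± 154 on day 18 (0.73 ± 0.20, adjusted p = 0.042). The call ended in 11 of 28 settings, with a highest adjusted p of 0.13, and the list's count was 0 without any one of untreated replicates 1, 3 and 4, hCG day 10 replicates 1 and 3, hCG day 12 replicate 2 and hCG day 18 replicates 1, 3 and 4. CEBPB, the C/EBP beta gene that LH induces in ovarian follicles, was at 2850 ± 840 untreated and 4231 ± 221, 4303 ± 480, 4283 ± 892 and 3972 ± 400 under hCG. Its log2 changes of 0.61, 0.63, 0.61 and 0.52 (SE 0.18) had adjusted p = 0.13, 0.18, 0.12 and 0.13. CEBPG, which lacks an activation domain of its own, had 0.31, 0.10, -0.07 and 0.00, and CEBPE, a granulocyte factor, 0.17, 0.30, -0.06 and -0.03. DDIT3, the stress-induced C/EBP homologous protein, was at 305 ± 96.1 untreated and 566 ± 203 on day 15 (0.85 ± 0.31, adjusted p = 0.26).

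Genes that C/EBP factors are known to switch on in fat, liver and myeloid cells were a list of 23, with 18 measured. None passed on hCG days 10 and 12, 1 rose on day 15 and 2 on day 18, beside 0.619% and 1.87% of all probe sets higher on those days. In at least 1 comparison 2 of the 18 passed, beside 4.76%, and the medians were -0.04, -0.08, 0.01 and 0.13. PPARGC1A, a coactivator of mitochondrial genes, rose from 25.0 ± 7.04 to 77.0 ± 23.8 on day 15 and 97.0 ± 40.2 on day 18 (1.16 ± 0.27, adjusted p = 0.036, and 1.41 ± 0.27, adjusted p = 0.0045). The first call ended in 11 of 28 settings and the second in 0. CSF1R, the receptor for the macrophage growth factor, rose on day 18 from 358 ± 138 to 731 ± 146 (1.06 ± 0.23, adjusted p = 0.012) and is also a macrophage marker. That call ended in 1 setting, the fit of its 8 arrays alone, with adjusted p = 0.073. ADIPOQ, the adipocyte hormone gene, was at 321 ± 25.8 and 252 ± 36.4 on day 18 (-0.34 ± 0.13, adjusted p = 0.2).

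**Figure D4:**
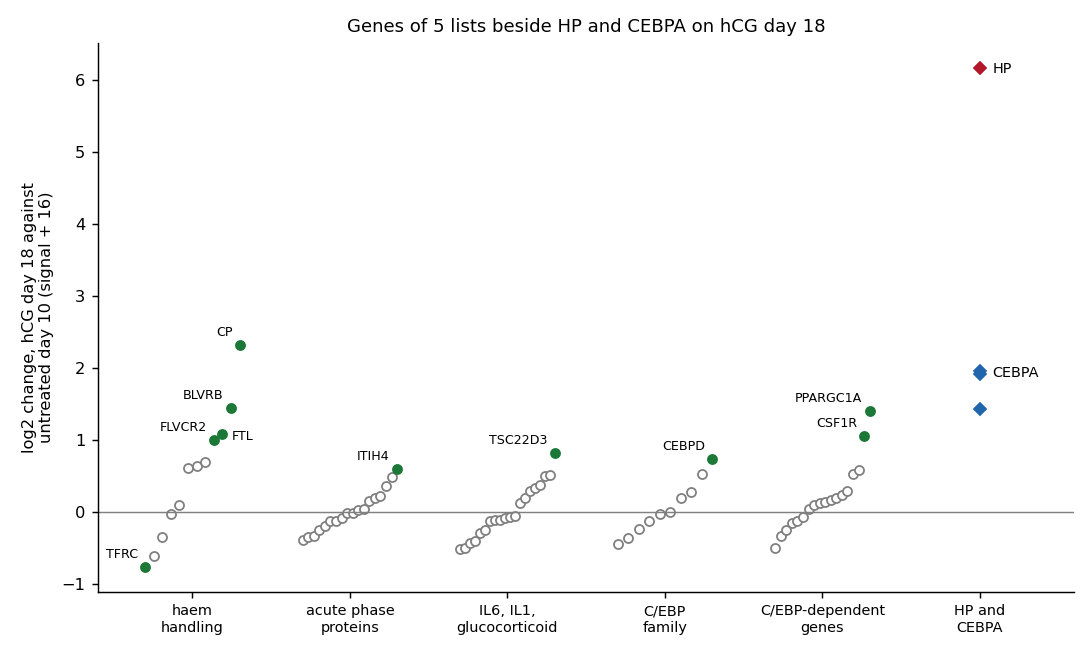
Log2 change on hCG day 18 against untreated day 10 for each measured gene of the 5 lists (circles, filled where the adjusted p is under 0.05) beside the HP and CEBPA probe sets (diamonds). CP has the largest change of the listed genes, at 2.31, and HP lies at 6.17.

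Markers of cells that could bring HP or CEBPA transcripts into the gland were summed per array. For 12 of 14 macrophage markers measured, the sum was 4125 to 11455 in the untreated arrays, 5342 to 7425 on hCG day 10, 5206 to 7891 on day 12, 6280 to 9427 on day 15 and 10546 to 19333 on day 18. On day 18 2 of the 12 rose, CSF1R and the complement gene C1QC (1.08 ± 0.28, adjusted p = 0.035), beside 1.87% of all probe sets. Of the 12, 11 lay above 0, and their median was 0.76, beside -0.03 over all probe sets. On days 10, 12 and 15 none of the 12 passed, and their medians were -0.16, -0.21 and 0.08. The complement gene C1QA was read by 2 probe sets that disagreed: the brighter, used above, had 0.89 on day 18 and did not pass, and MmugDNA.2736.1.S1_at passed as higher on day 10 (1.49) and as lower on day 18 (-1.16). The part of macrophages in the HP and CEBPA signals was not tested.

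For 11 of 16 neutrophil markers the sum was 365 to 817 untreated and 632 to 2073 on hCG day 18, and none passed in any comparison. On day 18, 10 of the 11 lay above 0, and their median log2 change was 0.20, beside -0.03 over all probe sets. Of this list CSF3R, MPO and ELANE were dim, with means of 31.5, 24.1 and 22.7 on day 18. S100A8, another gene of this marker list, was at 60.6 ± 54.8 untreated and 577 ± 702 on day 18 (2.36 ± 0.74, adjusted p = 0.09), with arrays from 77.8 to 1595. The part of neutrophils in the HP signal was not tested. For 8 of 11 hepatocyte markers none passed, the sum was 6437 to 13176 untreated and 5356 to 8322 on day 18, and most of it was APOA1, with AHSG, F2, SERPINC1 and FGB at means of 11.8, 31.8, 24.8 and 20.1 on day 18. For 8 of 11 adipocyte markers none passed, with sums of 1005 to 1207 and 1053 to 1557. For 4 of 10 red cell markers none passed, with sums of 124 to 185 and 193 to 416. HBB, a globin gene, was at 73.8 ± 33.9 untreated and 182 ± 109 on day 18 (1.06 ± 0.41, adjusted p = 0.18). Of the 6 luteal markers measured of 10, 1 passed in at least 1 comparison, beside 4.76% of all probe sets. This was HSD3B2, which fell on day 15 (-0.97, adjusted p = 0.024) and on day 18, from 8320 ± 1213 to 2340 ± 447 (-1.83 ± 0.21, adjusted p = 4.4e-05).

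The 5 genes whose log2 signal was most like that of HP over the 20 arrays, among 16390 probe sets of the upper 50% by mean signal, followed its late course. CHAD, a cartilage matrix protein gene, had r = 0.936 and went from a mean of 27.5 untreated to 34.4, 45.0, 88.7 and 162 under hCG. SLC7A4, a solute carrier, had r = 0.885 (45.1 untreated, 124 on hCG day 18). CTSL, the lysosomal protease cathepsin L, had 0.884 (2196 and 4230). BLVRB, also on the haem list, had 0.882, as had SLIT3, a secreted guidance protein gene (74.2 and 284). Most of such an r comes from the difference between groups, and the deviations from group means alone gave 0.696, 0.495, 0.52, 0.624 and 0.618 in this order. The likeness is a description over the arrays on which HP was chosen.

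The 5 genes most like CEBPA were, like it, higher from the first day of hCG, which follows from their choice by likeness over the same arrays. Of them 4 encode enzymes of cholesterol synthesis, and the share of such genes among all those compared was not computed. SQLE, squalene epoxidase, had r = 0.878 and means of 421 untreated, 896 on hCG day 10 and 1280 on day 18. CYP51A1, lanosterol demethylase, had 0.869 (1071, 2262 and 3275), and IDI1, isopentenyl diphosphate isomerase, 0.857 (652, 1679 and 2713). NSDHL, a sterol dehydrogenase, had 0.854 (725, 1417 and 1336), and JADE1, a subunit of a histone acetyltransferase complex, 0.851 (576, 1202 and 1119). In the deviations from group means alone, r was 0.64, 0.486, 0.348, 0.709 and 0.145. SQLE, CYP51A1 and IDI1 had higher means on day 18 than on day 10, whereas those of NSDHL and JADE1 were below their day 10 means.

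**Figure D5:**
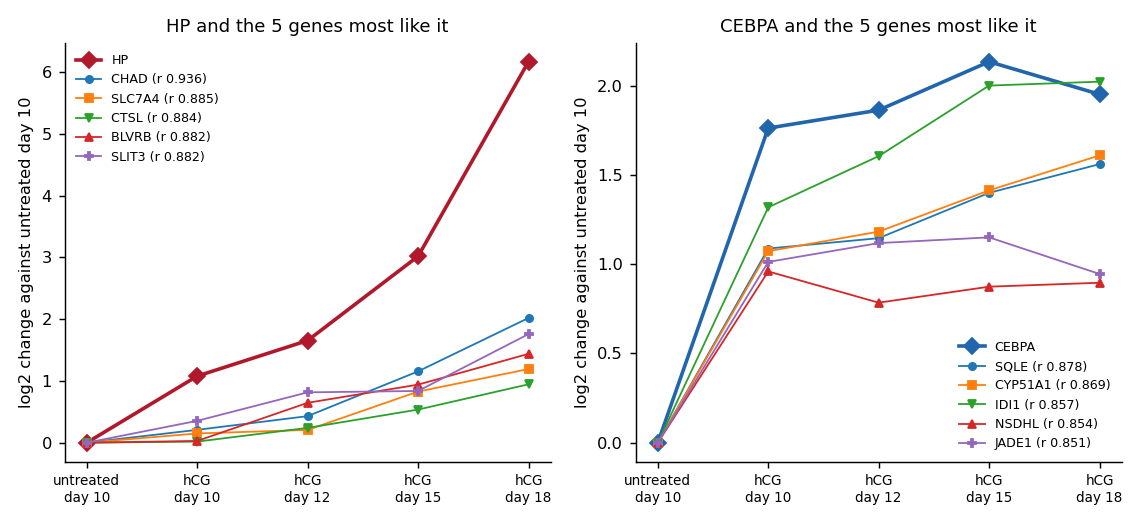
Mean log2 change against untreated day 10 in the 4 hCG groups for HP with its 5 most alike genes (left) and CEBPA with its 5 most alike genes (right), 1 line per gene, with no error bars. The genes beside HP reach 0.95 to 2.02 on day 18 where HP reaches 6.17, and those beside CEBPA lie between 0.78 and 2.02 in all 4 hCG groups.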

How the data were processed

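Messenger RNA of 20 corpora lutea was labelled with biotin and hybridised to Affymetrix rhesus arrays, per the labels' protocols. The deposited values are linear signal intensity per probe set, made by the authors with GCOS per the submitters' processing notes, version not given. The equal trimmed means (2% cut from each end) show scaling of each array to a common target. Array depth has no read count, and the number of arrays limits the precision. Symbols came from the platform annotation: 24956 of the 52707 probe sets had 1 symbol, 361 several and 27390 none. A further 158 control probe sets were left out. No sequences were used here, and genome coordinates served only to order the genes next to HP and CEBPA.

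Log2 of the signal + 16 was fitted with limma (version 3.58.1, R 4.3.3), with 1 mean per group over all 20 arrays, eBayes, and Benjamini-Hochberg adjustment over the 52707 probe sets. A gene's probe set with the highest mean log2 value stood for it. Within-group correlations used 100000 permutations. The members, 5 pathway lists and 6 marker lists were chosen with earlier results of these data known. Named were all HP and CEBPA probe sets, up to 4 genes per pathway list that passed, by smallest adjusted p, the C/EBP genes, CD163 and HPR, and the 5 genes most like each. The 3 arrays of component 3, TFRC, SLC40A1, HPX, the acute phase, IL6 and ADIPOQ values without a call, and the markers singled out were chosen after their values were seen. Alternatives were quantile normalisation, median-centring, pseudocounts of 1 and 64, the upper 50% of probe sets, the 8 arrays of a comparison alone, a replicate block, the mean of all probe sets of a gene, the other CEBPA probe sets and leaving out each array. Leaving out the 3 arrays apart on component 3 and holding the actin 3' to 5' difference constant were added after the values were seen. The procedure was tested on simulated data. Figures used Python 3.11.15 with matplotlib 3.10.9.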

Additional observations from a re-analysis of the deposited data

Results flagged for a closer look

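In 140 groups of 4 arrays, from 28 probe sets, an array far from the other 3 was sought by Dixon's ratio of its gap to the group's range, which chance passes in about 1 of 20 groups. No group of HP or CEBPA was among the 4 found. TFRC on hCG day 18 had 2004 in replicate 4, against 1688 to 1711 in the others. CTSL on hCG day 10 had 1730 in replicate 2, against 2350 to 2418. JADE1 had 1701 in replicate 2 of hCG day 10, against 979 to 1071, and 1208 in replicate 1 of hCG day 18, against 1085 to 1098.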

How the results depend on the processing

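Of 240 log2 changes of HP and CEBPA under other settings, 0 reversed and 237 moved by less than the spread. The exceptions were CEBPA read by MmuSTS.3401.1.S1_at, at 1.38, 1.44 and 1.43 on hCG days 12, 15 and 18. Many of the 240 could not move, because each change is a difference between group means. Leaving out an array of another group, fitting the arrays of a comparison alone or adding the replicate block leaves it unaltered. The spread of HP was also wide, so its day 10 change of 0.48 without 1 array, against 1.08, counted as not moved. The count of 237 therefore says little about stability. Without 1 array, HP ran from 0.48 to 1.52, 1.07 to 2.28, 2.65 to 3.63 and 5.96 to 6.35, and CEBPA from 1.51 to 1.91, 1.78 to 2.00, 1.96 to 2.27 and 1.74 to 2.11. The within-group r of HP with CEBPA was past an unadjusted 0.05 with median-centring (0.565, permutation p = 0.031), a pseudocount of 64 (0.527, permutation p = 0.039), the mean of all probe sets of a gene (0.741, permutation p = 0.013), the other CEBPA probe sets (0.767 and 0.742), and without the 3 arrays apart on component 3 (0.499, permutation p = 0.048). It ran from 0.31 (without hCG day 10 replicate 4) to 0.581 (without hCG day 18 replicate 4), permutation p from 0.26 to 0.041, without 1 array. It was 0.297 with the replicate block and 0.295 with the actin difference held constant (0.692 and 0.685 on the other CEBPA probe sets), with no test. Same-numbered arrays of different groups correlated at -0.393 to 0.472 (median 0.0367, 40 pairs). Different-numbered ones did so at -0.46 to 0.476 (median -0.0342, 120 pairs). Whether the numbers pair the samples was not tested. The block moved no count of probe sets, or of list genes passed in at least 1 comparison, by over 1.5 times. With it, calls of OSMR on hCG day 10, TSC22D3 on days 10 and 15, BLVRB on day 15 and TFRC on day 18 ended.

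Probe sets that passed numbered 503, 152, 681 and 2054 on hCG days 10, 12, 15 and 18. The first 3 were 254, 95 and 410 with a pseudocount of 1, 172, 7 and 230 with the 8 arrays alone, and 324, 93 and 359 without the 3 arrays. Day 12 had 233 in the upper 50%, where fewer probe sets are tested. Without 1 array the counts were 228 to 577, 73 to 290, 321 to 774 and 1375 to 2120. The lowest of the first 3 came without replicate 3 of hCG day 10, replicate 3 of hCG day 12 and replicate 4 of hCG day 15. List genes that passed in at least 1 comparison numbered 5 (haem), 1 (acute phase), 2 (IL6 and glucocorticoid), 1 (C/EBP family) and 2 (C/EBP-dependent), and without 1 array 2 to 6, 0 to 1, 1 to 3, 0 to 1 and 2 to 3. A pseudocount of 1 gave 3 haem, 0 acute phase, 1 IL6 and 0 C/EBP family genes. The mean over probe sets gave 3, 0 and 1 of the first 3 lists, and median-centring 0 acute phase. The 8 arrays alone gave 1 IL6, 0 C/EBP family and 1 C/EBP-dependent. Without the 3 arrays the acute phase list had 0 and the IL6 list 1. The cause of these shifts was not tested. Dim probe sets, such as HP untreated, are limited by signal over background.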

Other observations

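Genes next to HP and CEBPA on the rhesus chromosomes, taken in order from the RefSeq annotation (3 named protein-coding genes on each side), had probe sets for 10 of 12. None passed on hCG days 10, 12 and 15 and 2 rose on day 18 (limma), beside 1.87% of all probe sets. TXNL4B, a splicing factor gene next to HP, had a log2 change of 0.68 ± 0.17 (adjusted p = 0.024). PEPD, a dipeptidase gene near CEBPA, had 0.61 ± 0.14 (adjusted p = 0.017). CEBPG, which lies next to CEBPA, and DHODH, on the other side of HP, did not pass.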
